A study of Mus musculus with 8 samples.

Results

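Glycolysis breaks glucose down to pyruvate in a chain of cytosolic steps, and lactate dehydrogenase then exchanges pyruvate and lactate. Most steps are run by a small family of isozymes, so a tissue can use different genes for the same reaction, as neurons do with the gamma enolase *Eno2* and other cells with the alpha enolase *Eno1*. The pathway supplies ATP in the brain, and its abundant transcripts, *Gapdh* and *Pgk1* among them, are widely used as reference genes. They also tend to have processed pseudogenes, which are intron-less copies of an mRNA inserted elsewhere in the genome.

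Described here are 10 glycolytic genes in the brain of 7-day-old mice: *Hk1*, *Aldoa*, *Tpi1*, *Gapdh*, *Pgk1*, *Eno1*, *Eno2*, *Pkm* (listed by its older symbol *Pkm2*), *Ldha* and *Ldhb*. They were picked by symbol from the 24015 entries of the gene count table, of which 9 matched the listed symbol and *Pkm* matched through a RefSeq synonym. The set was put together because *Gapdh* was known to be near 0 in these libraries, so its low level is a description and not a test result. Of the 10 genes, 9 reached 1 CPM (the count relative to the library total, after TMM scaling in edgeR) in at least 1 library and entered the test, which covered 15588 genes. *Eno1* did not, and is reported by its counts.

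The study asked what is lost when a non-coding interval of *Scn1a*, the gene of a neuronal sodium channel subunit, is removed. The mice came from a Cas9-edited line on the C57BL/6N strain: wild-type animals (WT, n = 2, both male), heterozygous carriers of the deletion (1b+/-, n = 4, 2 males and 2 females) and homozygotes (1b-/-, n = 2, both female). Poly(A) RNA was read as strand-marked 50-base single reads. WT and 1b-/- therefore differ in sex as well as in genotype, and these cannot be told apart. The labels call the tissue hippocampus and the study's methods call it forebrain. The markers did not settle this. Of the hippocampal list (summed 113 to 154 CPM over 7 genes), *Zbtb20* had the largest part, at 46.5 to 89.5 CPM. *Prox1* was at 11.6 to 30.8 CPM and *Man1a* at 19.4 to 37.5 CPM. *Fibcd1*, *Wfs1* and *Grik4* lay between 2.23 and 11.9 CPM, and *Spink8* did not exceed 0.505 CPM. Of the cerebellar list (summed 93.1 to 151 CPM over 7 genes), *Cbln1* had the largest part, at 61.9 to 82.2 CPM. *Calb1* was at 12.8 to 46.6 CPM. The Purkinje cell gene *Pcp2* did not exceed 0.766 CPM, *Cbln3* 2.12 CPM and *Gabra6* 0.33 CPM. However, *En2* and *Barhl1* reached 15.6 and 14.3 CPM in 1b+/- replicate 1. *Scn1a* was 40.5 to 45.1 CPM in WT, 15.7 to 26.7 in 1b+/- and 2.0 to 3.18 in 1b-/-, in the order of the labels. Totals ranged from 2947770 to 20878772 counts, and 3 counts, the limit that a count of 0 allows, stood for 0.145 to 1.0 CPM depending on depth, with regard to counting error alone. The labels do not say how the animals were related, so p-values measure only the spread between these 8 libraries.

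The genes fell into a well counted group of 7 and a group of 3 near 0. Levels of different genes are compared as CPM per kb, that is, CPM divided by the length of the merged annotated exons. On that scale *Pkm*, the pyruvate kinase of brain and muscle, was highest at 144 ± 25.6 (SD, n = 8). It was followed by *Ldhb* at 61.1 ± 6.14 CPM per kb, the triose phosphate isomerase gene *Tpi1* at 52.3 ± 10.3 and the aldolase gene *Aldoa* at 40.8 ± 11.1. *Hk1*, the main hexokinase of brain, was at 30.6 ± 4.71 CPM per kb, *Ldha* at 25.1 ± 3.50 and *Eno2* at 7.15 ± 1.63. *Pgk1*, whose product carries out the first ATP-yielding step, was at 0.346 ± 0.138 CPM per kb, *Gapdh* at 0.301 ± 0.209 and *Eno1* at 0.00192 ± 0.00543. Ranges over the 8 libraries did not overlap between *Pkm* and *Ldhb*, between *Ldha* and *Eno2*, between *Eno2* and *Pgk1*, or between *Gapdh* and *Eno1*. The other neighbours overlapped, and *Pgk1* was above *Gapdh* in 4 of 8 libraries. With the length of the longest transcript in place of merged exons the order of *Tpi1* and *Aldoa*, and that of *Pgk1* and *Gapdh*, was exchanged.

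**Figure D1:**
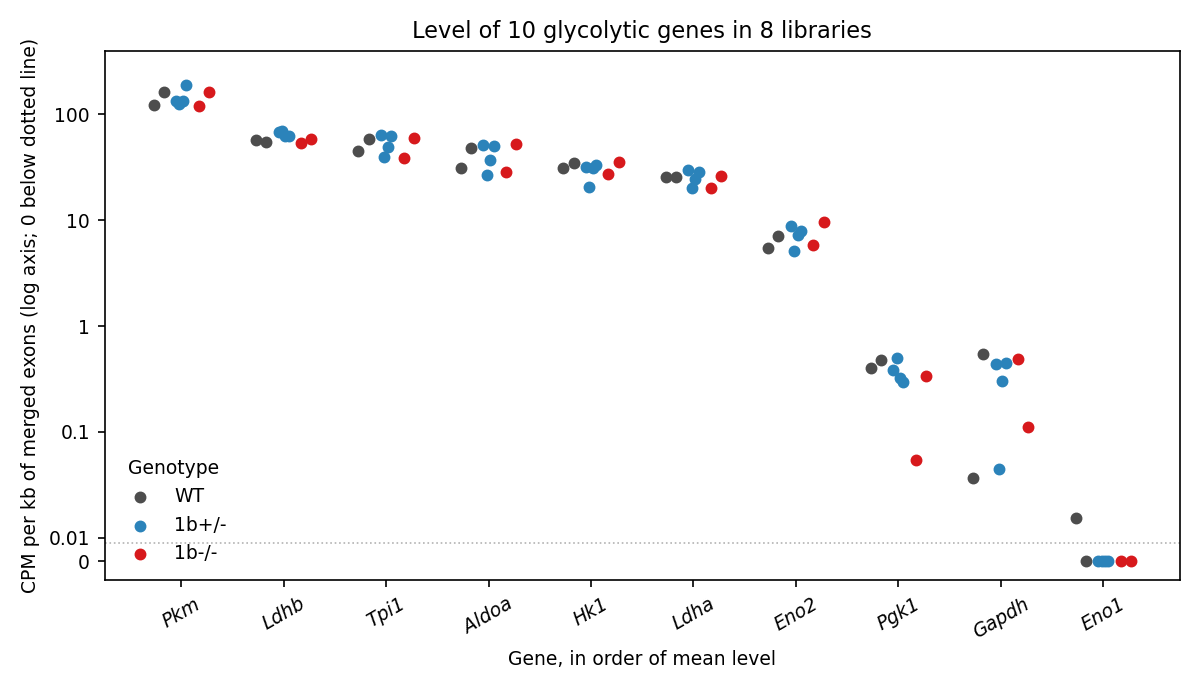
CPM per kb of merged exon (log axis, with 0 drawn under the dotted line) of the 10 genes, ordered by mean. Each point is 1 library, coloured by genotype (WT n = 2, 1b+/- n = 4, 1b-/- n = 2). *Pgk1*, *Gapdh* and *Eno1* reach at most 0.544 CPM per kb in any of the 8 libraries, and *Eno1* is at 0 in 7 of them.

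*Gapdh* encodes glyceraldehyde phosphate dehydrogenase, the NAD+-linked oxidation at the centre of the pathway. Its row held 1 and 8 counts in the WT libraries, 15, 1, 14 and 3 in the 1b+/- libraries, and 9 and 1 in the 1b-/- libraries. In CPM these were 0.0827 and 1.23 in WT, 0.990, 0.101, 0.679 and 1.0 in 1b+/-, and 1.10 and 0.250 in 1b-/-. The low and high values were spread over all 3 genotypes. Per kb, *Gapdh* amounted to 0.966% ± 0.666 (SD, n = 8) of the median of the other 9 genes in the same library, and from 0.118% in WT replicate 1 to 1.81% in 1b-/- replicate 1. In the same libraries *Actb*, the beta-actin gene, was at 1764 to 2299.7 CPM per kb.

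*Pgk1*, the phosphoglycerate kinase gene, was as scarce. It had 11 and 7 counts in WT (0.909 and 1.07 CPM), 13, 11, 15 and 2 in 1b+/- (0.858, 1.11, 0.727 and 0.668 CPM), and 1 and 3 in 1b-/- (0.122 and 0.751 CPM). *Eno1* had 1 count in WT replicate 1 and 0 in the other 7 libraries. Its partner isozyme *Eno2* was at 25.5 and 33.4 CPM in WT, 42.0, 24.1, 34.1 and 37.1 in 1b+/-, and 27.7 and 45.3 in 1b-/-. Of these 2 isozymes the counts were thus almost all those of *Eno2*, which made up at least 99.7% of their sum per kb in each library. The muscle enolase *Eno3* also had counts, at a mean of 1.23 CPM per kb against 7.15 for *Eno2*.

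The transcripts of the 10 genes were compared with the mouse genome in the build of the files (mm9, NCBIM37; gene positions and transcripts from GENCODE vM1). Each stretch of 50 bases, the length of the reads, of the longest coding transcript was looked up on both strands, and matches outside the gene's own span were counted as lying elsewhere. *Gapdh* lies on the minus strand of chromosome 6 (125111871 to 125116485) and has 7 exons in its longest coding transcript, *Pgk1* on the plus strand of chromosome X (103382439 to 103399038, 11 exons) and *Eno1* on the plus strand of chromosome 4 (149610830 to 149622988, 12 exons). *Hk1* lies on the minus strand of chromosome 10 (61731603 to 61842656) and *Pkm* on the plus strand of chromosome 9 (59504383 to 59527182).

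Exon junctions show the copies most directly, because an mRNA junction read without a break in the genome marks an intron-less copy. The 30 bases around a junction between coding exons are given 5′ to 3′ for the 3 scarce genes and for *Pkm* and *Hk1*, with the bases on either side of the junction in capitals. For each gene the junction with the most matches is given, or the earliest coding junction where none matched.
Gapdh, exons 6 and 7: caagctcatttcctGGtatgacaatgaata
Pgk1, exons 10 and 11: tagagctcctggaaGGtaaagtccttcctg
Eno1, exons 4 and 5: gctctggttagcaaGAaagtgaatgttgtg
Pkm, exons 10 and 11: tggccatggatgttGGcaaggcccgaggct
Hk1, exons 1 and 2: gaccaagtcaaaaaGAttgataagtatctg
The *Gapdh* stretch occurred unbroken at 84 other places in the genome, the *Pgk1* stretch at 6, the *Eno1* stretch at 5, the *Pkm* stretch at 4 and the *Hk1* stretch at 0. Counted over all coding junctions, 5 of 5 were found unbroken elsewhere for *Gapdh*, 10 of 10 for *Pgk1* and 8 of 10 for *Eno1*. Among the abundant genes the counts were 6 of 9 for *Pkm*, 5 of 7 for *Ldha*, 5 of 6 for *Ldhb*, 2 of 8 for *Aldoa*, 2 of 6 for *Tpi1*, 0 of 10 for *Eno2* and 0 of 17 for *Hk1*.

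Of the 1371 windows of 50 bases in the *Gapdh* transcript, 1174 (85.6%) also occurred elsewhere. Over all 1371 windows the median was 39 other places and the maximum 83. Medians are taken here over all windows of a transcript, those without a match included. Every window that lay wholly in the coding sequence of *Gapdh* was among the 1174 (100%). The matches formed 187 loci on 21 chromosomes, 55 of them in an annotated pseudogene. *Pgk1* had 92.9% of its windows elsewhere, coding sequence again at 100%, but at a median of only 2 places and from 4 loci. *Eno1* had 72.2% elsewhere (83.4% of coding windows), at a median of 2 places. The scarce genes therefore differed widely in the number of copies.

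The other 7 genes had smaller shares. *Pkm* had 41.4% of windows elsewhere, *Ldhb* 33.6%, *Ldha* 29.1%, *Tpi1* 23.6%, *Aldoa* 14.8%, *Eno2* 0.583% and *Hk1* 0.0473%. No member with under 50% was scarce, and none with over 70% exceeded 1.23 CPM in any library. With 1 mismatch allowed the shares of *Ldhb* (72.3%), *Pkm* (68.5%) and *Ldha* (63.4%) came closer to that of *Eno1* (83.3%). The gap between the groups was then narrower, though they still did not overlap. *Ldhb* was then also over 70%, so the statement on genes over 70% holds for exact matches only. The levels within the group of 7 had no such order: *Pkm* had the largest share of copied windows and the highest level per kb, and *Eno2*, almost without copies, had the lowest.

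**Figure D2:**
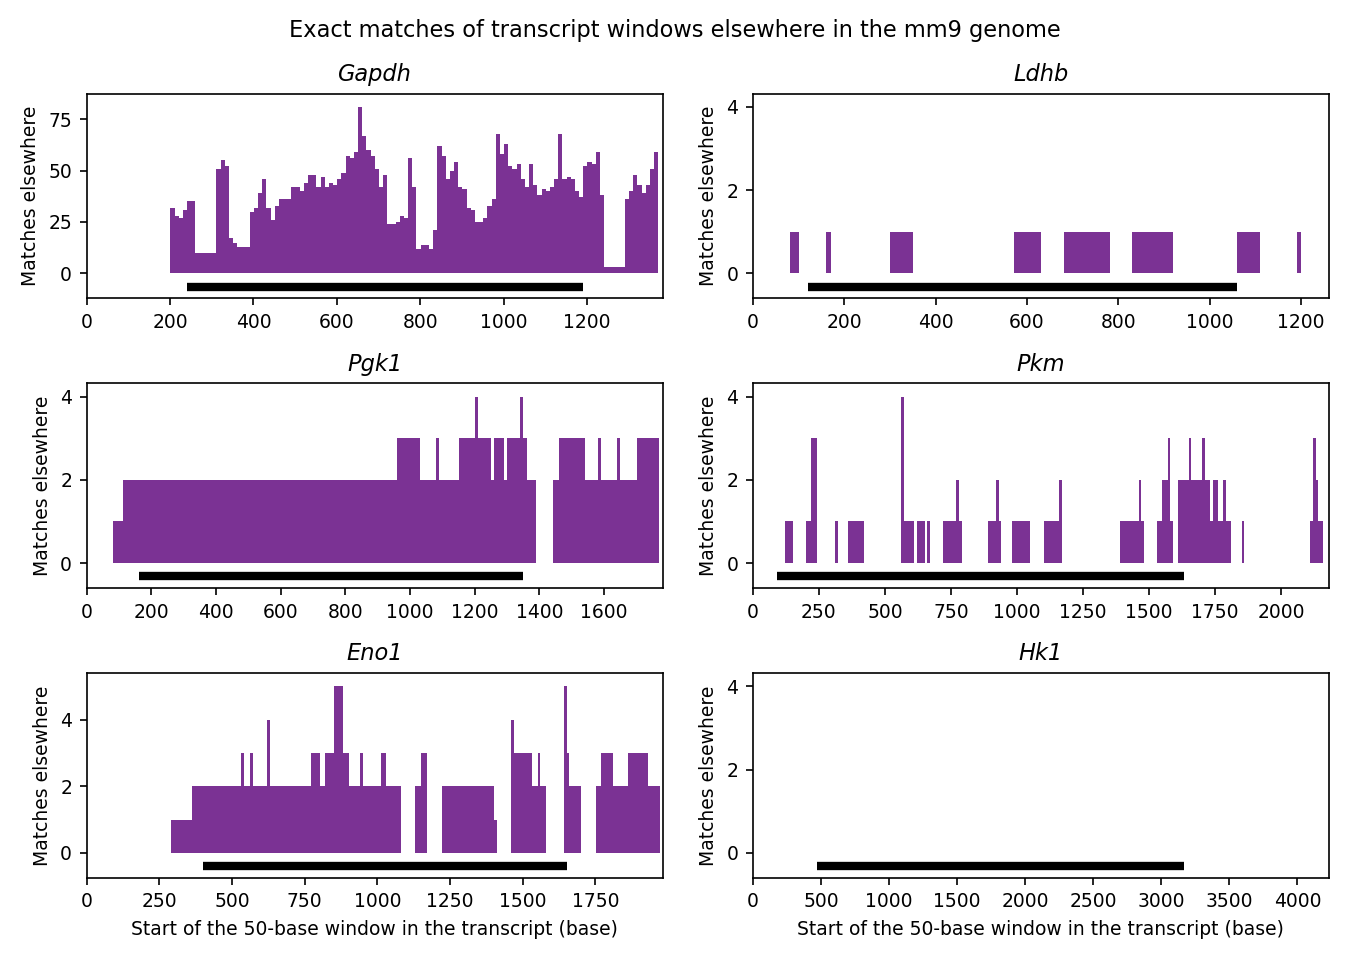
Number of exact matches elsewhere in the mm9 genome (vertical axis, a different scale for each gene) for 50-base windows along the longest coding transcript (horizontal axis, base at which the window starts, every 10 bases). The black bar marks windows inside the coding sequence. *Gapdh* windows match at a median of 39 other places and *Pgk1* windows at 2, *Eno1*, *Ldhb* and *Pkm* have gaps without a match, and *Hk1* shows none in the windows drawn.

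The counts did not follow the windows in full. *Eno1* had 550 windows found nowhere else, 209 of them wholly coding, and still held 1 count in all 8 libraries together. *Gapdh* had 197 such windows and *Pgk1* 126, none of them wholly coding in either gene. For comparison, *Gapdhs*, the sperm-type relative of *Gapdh*, had 0 windows elsewhere and was at 1.72 to 2.29 CPM per kb, above *Gapdh* in each library on that scale. In GENCODE vM1, no exon base of *Gapdh*, *Pgk1* or *Eno1* is shared with another annotated gene on either strand. By contrast, 1.84% of *Hk1* and 1.54% of *Tpi1* exon bases lie opposite an exon of another gene. The annotation used for the deposited counts may differ from GENCODE vM1.

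Few of the copies have a row of their own in the count table. Of the 55 *Gapdh* pseudogene symbols in the annotation, 1 had a row, *Gm12070*, with a mean of 0.105 CPM. A further 4 rows carried exons that hold *Gapdh* copies without being annotated as pseudogenes. These were *Gm5069* at a mean of 2.42 CPM, *3000002C10Rik* at 1.31, *Gm6981* at 0.859 and *Gm6498* at 0.432. No copy had a row with a mean over 2.42 CPM. How the authors treated reads with several matches is not given in the sources used here, and its part in these levels was not tested.

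The same look-up was made for 4 further lists. *Pgam1*, the brain form of the next enzyme after *Pgk1*, had 91.9% of windows elsewhere and a mean of 1.45 CPM. It was named after its values were seen. Among the reference genes, *Ppia* (cyclophilin A) had 61.9% elsewhere and a mean of 2.14 CPM, and the list median was 82.2 CPM. In a list of 20 abundant genes known for retrocopies, the lowest per kb were *Actg1* (gamma-actin, 96.7% elsewhere, 1.23 CPM), *Ppia* and *Rpl23a* (a ribosomal protein gene, 94.5% elsewhere, 0.557 CPM). Others of that list, also chosen after their values were seen, kept high counts: *Eef1a1* had 72.6% of windows elsewhere at a mean of 1316 CPM, *Tuba1a* 69.6% at 1513 CPM and *Ptma* 92.4% at 79.7 CPM. A large copied share was thus not always paired with a low count.

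**Figure D3:**
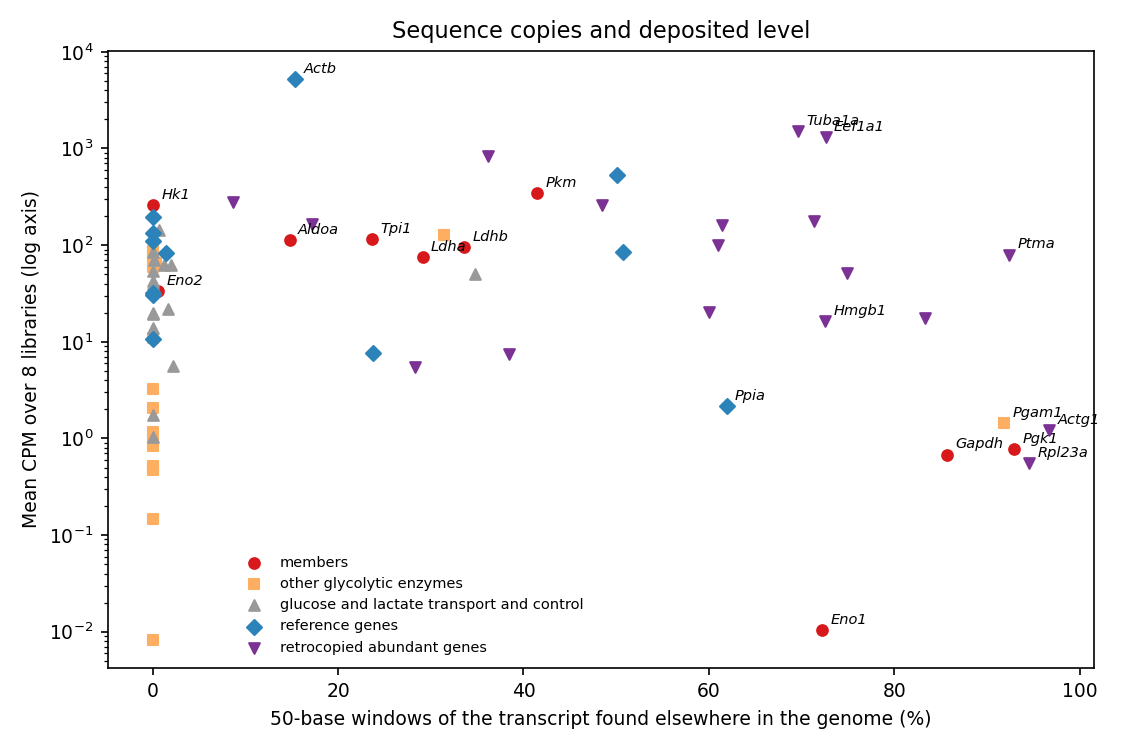
Percent of 50-base windows of the longest coding transcript found elsewhere in the genome (horizontal axis) against mean CPM over 8 libraries (vertical log axis) for the glycolytic members and 4 comparison lists, 1 point per gene. *Gapdh*, *Pgk1* and *Eno1* lie at the lower right with *Pgam1*, *Actg1* and *Rpl23a*, and *Eef1a1* and *Ptma* lie above them at similar shares.

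Over all 19241 coding genes that had a row and windows, *Gapdh* had a larger copied share than 98.5%. The 582 genes with over 70% of windows elsewhere had a median of 0 CPM, and 85.7% of them had a mean under 3 CPM. Genes between 50% and 70% had a median of 0.0672 CPM (426 genes) and those between 10% and 50% a median of 0.165 CPM (2035 genes). The 16197 genes with at most 10% had a median of 10.2 CPM, and 37.1% were under 3 CPM. In the top class 48 genes still had a mean of at least 10 CPM. These are descriptions across genes, which are not replicates, and what else the genes of a class share was not tested.

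The 7 abundant genes were next followed library by library. *Hk1*, which traps glucose in the cell, was at 267 and 294 CPM in WT, 270, 176, 269 and 281 in 1b+/-, and 231 and 300 in 1b-/-. Its value in 1b+/- replicate 2 stood below the other 3 of its genotype. *Aldoa*, which splits fructose bisphosphate, was at 85.5 and 133 CPM in WT, 142, 74.4, 102 and 139 in 1b+/-, and 78.2 and 145 in 1b-/-. *Tpi1*, which interconverts the products, was at 99.2 and 128 CPM in WT, 140, 88.4, 108 and 140 in 1b+/-, and 86.3 and 134 in 1b-/-. Both genes had a low and a high library in each genotype, so the groups overlapped widely.

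*Pkm*, which makes pyruvate, was at 290 and 392 CPM in WT, 322, 298, 323 and 458 in 1b+/-, and 289 and 388 in 1b-/-. *Ldha*, the lactate dehydrogenase subunit common in muscle, was at 75.8 and 76.3 CPM in WT, 88.1, 60.1, 72.9 and 86.1 in 1b+/-, and 60.0 and 78.6 in 1b-/-. *Ldhb*, the subunit common in heart, was at 90.0 and 85.8 CPM in WT, 108, 110, 98.3 and 98.8 in 1b+/-, and 84.8 and 91.1 in 1b-/-. *Ldhb* was the gene with the smallest spread, its highest library being 1.30 times the lowest, against 1.94 times for *Aldoa*.

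Most of the 7 genes were high and low in the same libraries. The 1b+/- replicate 4 was among the 3 highest libraries for 7 of 7 genes, 1b-/- replicate 2 for 6 and 1b+/- replicate 1 for 5. At the other end, 1b-/- replicate 1 was among the 3 lowest for 7 of 7 genes, and WT replicate 1 and 1b+/- replicate 2 for 6 each. The exception in 1b+/- replicate 2 was *Ldhb*, which was highest there. Both ends thus held libraries of more than 1 genotype. The libraries at the upper end had 2947770, 3940859 and 14063105 counts and those at the lower end 8405494, 12575229 and 9890980, and the part of depth in this was not tested. Choroid plexus markers, summed over 10 genes of which none was at 0, ranged from 1047 to 1102 CPM in WT, from 114 to 1060 in 1b+/- and from 501 to 922 in 1b-/-. The spread of this sum was mostly that of *Ttr*, at 6.77 to 938 CPM over the libraries. *Enpp2* had means of 71.9, 74.7 and 73.1 CPM in WT, 1b+/- and 1b-/-. By sign, 8 of the 10 genes were lower and 2 higher in 1b+/- than in WT, and 9 were lower and 1 higher in 1b-/- than in WT. A list of 7 forebrain markers, none at 0, ran opposite to the glycolytic genes in its sum. It summed to 2016, 2360 and 2826 CPM in 1b+/- replicate 1, 1b-/- replicate 2 and 1b+/- replicate 4, the upper end, and to 3633, 3690 and 3760 CPM in WT replicate 1, 1b+/- replicate 2 and 1b-/- replicate 1, the lower end. These were the 3 lowest and the 3 highest sums of the list. *Neurod6* had the largest part of the sum, at 915 to 2040 CPM over the libraries, whereas *Emx1* was at 6.49 to 17.4 CPM. The order of the sums therefore need not hold for each marker of the list. Astrocyte markers summed to 1222 to 1688 CPM and neuronal markers to 5390 to 6614 CPM over the 8 libraries. The part of cell makeup was not tested, and in bulk tissue fewer cells of a type cannot be told apart from less RNA per cell.

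**Figure D4:**
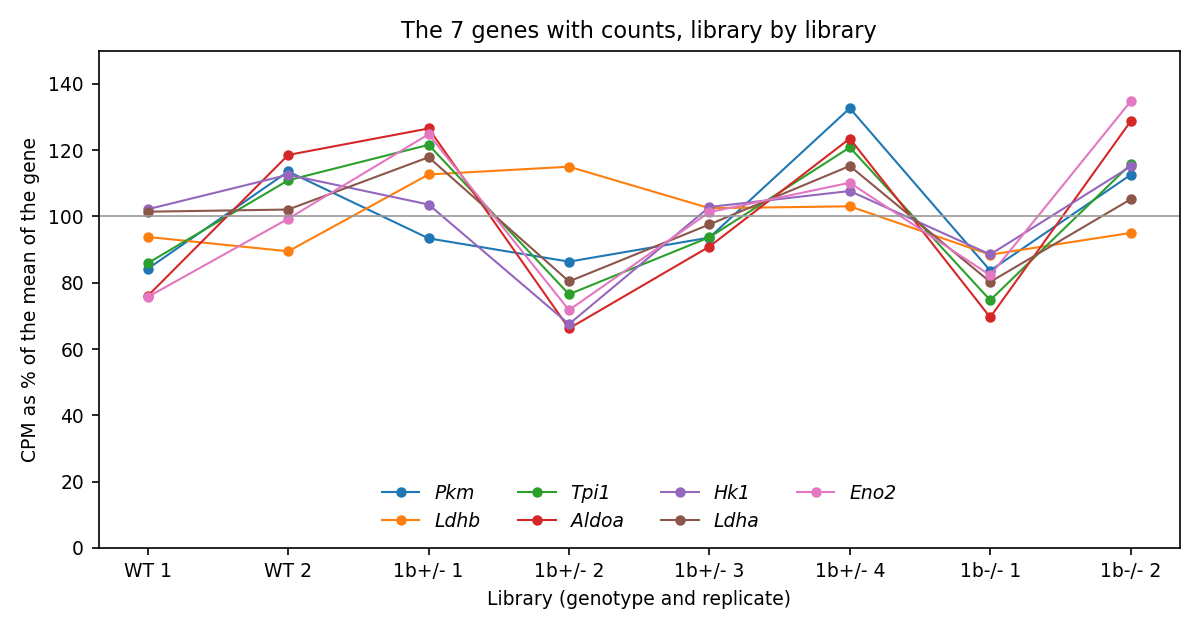
CPM of the 7 abundant genes in each library as a percent of the mean of that gene over the 8 libraries (vertical axis), by library (horizontal axis, genotype and replicate); lines join the values of 1 gene. The 1b+/- replicate 4 is above 100% for all 7 genes, 1b-/- replicate 1 is below it for all 7, and *Ldhb* departs from the others in 1b+/- replicate 2.

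The genes outside all lists whose log2 CPM was most like that of the summed CPM of the members other than *Gapdh* were *Lrrc4b* (Pearson r = 0.992 over 8 libraries), *6030419C18Rik* (0.990) and *Trappc3* (0.990). The sum they were matched to ranged from 833 to 1240 CPM. The 3 genes were selected for this likeness among all genes tested, so it carries no test.

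The genotypes were then compared by the quasi-likelihood test of edgeR, with genotype as the factor and Benjamini-Hochberg adjustment over the 15588 genes. In 1b+/- against WT 0 of 9 members passed an adjusted p of 0.05, against 0.0834% of all genes tested. In 1b-/- against WT 0 of 9 passed, against 0.00642%, and in 1b-/- against 1b+/- 0 of 9 passed, against 0.00642%. At an unadjusted p under 0.05 the count was also 0 in each comparison, where the shares of all genes were 4.34%, 1.64% and 1.23% in the same order, so that 0 of 9 is near the background. DESeq2 and the edgeR likelihood ratio test also made 0 calls among the members. Without 1b+/- replicate 1, the library in which *En2* and *Barhl1* were highest, the edgeR fit also called 0 members. The median log2 fold change of the 9 members was 0.06 in 1b+/- against WT (0.01 over all genes), -0.01 in 1b-/- against WT (-0.01 over all genes) and -0.05 in 1b-/- against 1b+/- (0.00 over all genes). By sign, 7 members were higher and 2 lower in 1b+/- than in WT, and 3 were higher and 6 lower in both comparisons of 1b-/-. The WT libraries serve 2 of these comparisons.

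For the abundant genes the intervals give the changes that the data leave possible. In 1b-/- against WT the log2 fold change of *Hk1* was -0.08 (95% interval -0.56 to 0.40), that of *Pkm* -0.01 (-0.52 to 0.50) and that of *Ldha* -0.14 (-0.60 to 0.31). *Aldoa*, with the widest interval of the 7, was at 0.02 (-0.73 to 0.77). A log2 change of 1 lay outside the interval of each of these 4 genes, and changes inside these intervals remain possible. The intervals are not adjusted for the number of genes tested and are not limits of detection. *Gapdh* was at 0.42 (-2.24 to 3.08) in that comparison, at 0.23 (-2.01 to 2.48) in 1b+/- against WT and at 0.19 (-2.05 to 2.42) in 1b-/- against 1b+/-. With 1 to 15 counts a library, these intervals span changes in both directions.

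*Ldhb* was the abundant member with the smallest p-value in both comparisons that involve 1b+/-. All 4 1b+/- libraries (98.3 to 110 CPM) were above both WT libraries (85.8 and 90.0 CPM) and both 1b-/- libraries (84.8 and 91.1 CPM). Its log2 fold change was 0.24 (SE 0.13) in 1b+/- against WT, with an unadjusted p of 0.0825 in the edgeR fit across all genes and an adjusted p of 1.0. In 1b-/- against 1b+/- it was -0.24 (SE 0.13, unadjusted p = 0.0848 and adjusted p = 1.0 by edgeR). In 1b-/- against WT it had the largest p of the 9 members (unadjusted p = 0.997 by edgeR), and *Eno2* had the smallest of the abundant ones (unadjusted p = 0.328 by edgeR). *Ldhb* was the 1 member of 9 whose groups did not overlap in each comparison with 1b+/-, against 12.3% and 7.39% of all genes tested, respectively. In 1b-/- against WT the 1 member without overlap was *Pgk1*, against 23.6% of genes, with a log2 fold change of -1.43 (SE 0.91, 95% interval -3.41 to 0.56) that rests on 1 and 3 counts in the 1b-/- libraries.

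**Figure D5:**
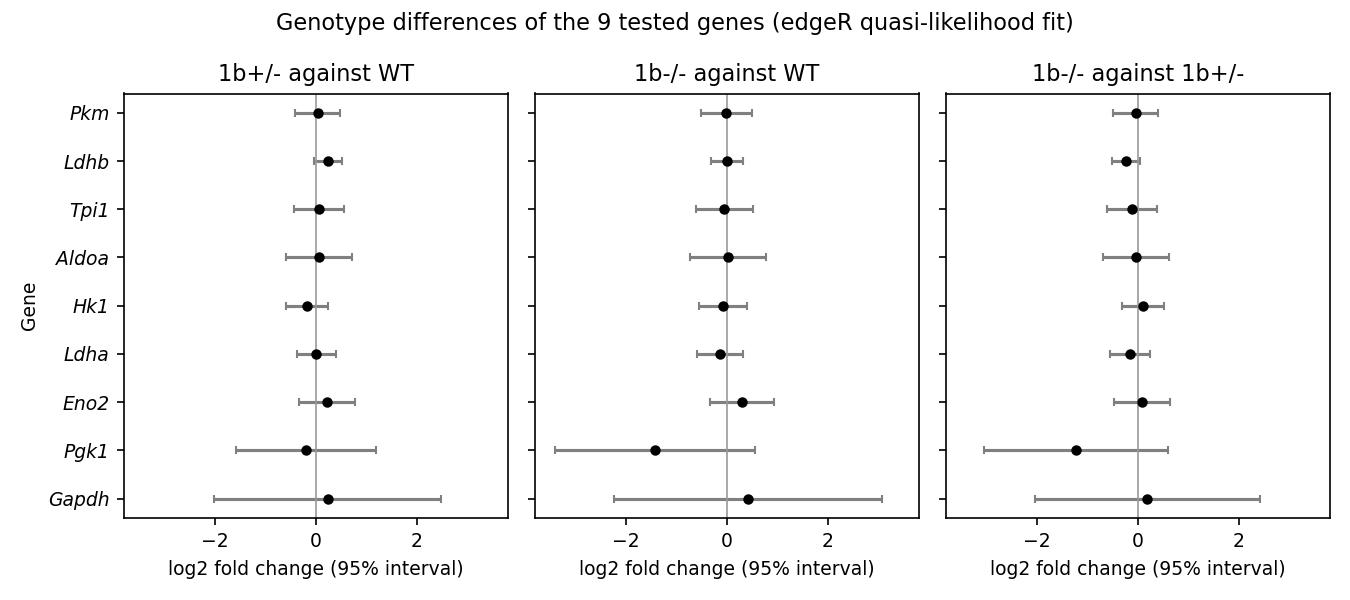
Log2 fold change (horizontal axis) with its 95% interval for the 9 tested genes in the 3 genotype comparisons, from the edgeR quasi-likelihood fit over 8 libraries (WT n = 2, 1b+/- n = 4, 1b-/- n = 2). Every interval includes 0, and those of *Gapdh* and *Pgk1* are wider than those of the 7 abundant genes.

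The subunit makeup of lactate dehydrogenase was taken as the *Ldha* share of *Ldha* plus *Ldhb*, per kb. It was 29.1% ± 3.22 (SD, n = 8), and lowest in 1b+/- replicate 2 at 22.3%. Means were 31.3% in WT, 28.0% in 1b+/- and 29.2% in 1b-/-. Exact two-sided permutation tests gave p = 0.267 for 1b+/- against WT, 0.667 for 1b-/- against WT and 0.933 for 1b-/- against 1b+/-, all 1 after Benjamini-Hochberg adjustment over 6 tests. The smallest p these group sizes allow is 0.133 for 4 against 2 animals and 0.333 for 2 against 2. The other 3 of the 6 tests, on the *Eno2* share of *Eno1* plus *Eno2*, turn on the 1 count of *Eno1*.

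The rest of the pathway was read from lists of the other glycolytic isozymes (17 genes, 13 tested) and of glucose and lactate transport and its control (16 genes, all tested). In each of the 3 comparisons 0 of 29 tested genes passed the edgeR threshold, against 0.0834%, 0.00642% and 0.00642% of all genes. Each comparison had 1 gene of the lists at an unadjusted p under 0.05, against 4.34%, 1.64% and 1.23% of all genes, and 1 of 29 is too few to set apart from these shares. In both comparisons with WT that gene was *Pfkp*, the platelet-type phosphofructokinase, which acts at the committed step. *Pfkp* was at 37.5 and 48.6 CPM in WT, 93.8, 55.1, 58.1 and 51.4 in 1b+/-, and 66.0 and 67.6 in 1b-/-. Both WT libraries were below all others. Of all genes tested, 12.3% had no overlap between 1b+/- and WT, and 23.6% had none between 1b-/- and WT. The log2 fold change of *Pfkp* was 0.60 (SE 0.24, unadjusted p = 0.0264) in 1b+/- and 0.64 (SE 0.27, unadjusted p = 0.0364) in 1b-/- against WT, with an adjusted p of 1.0 in the edgeR fit for each. These 2 comparisons share the WT libraries. In 1b-/- against 1b+/- the gene was *Aldoc*, the aldolase of astrocytes, with means of 61.4 CPM in 1b-/- and 84.0 CPM in 1b+/-. Its groups did not overlap, which held for 1 of the 13 tested isozymes of its list and for 7.39% of all genes tested. Its log2 fold change was -0.45 (SE 0.17, unadjusted p = 0.0244, adjusted p = 1.0 by edgeR), and the astrocyte markers summed to 1274 to 1392 CPM in 1b-/- and 1375 to 1688 CPM in 1b+/-. Their part in the *Aldoc* difference was not tested.

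Large fold changes elsewhere in the lists belonged to scarce genes. *Pfkfb1*, a regulator of phosphofructokinase, had means of 0.856 CPM in WT, 1.78 in 1b+/- and 2.49 in 1b-/-, and *Slc16a3*, a lactate exporter, 0.761, 1.13 and 1.12 CPM. The muscle enolase *Eno3* was at 2.11, 2.31 and 1.61 CPM. The reference gene *Ppia* was at 2.25, 2.57 and 1.18 CPM. None of these passed the edgeR threshold in any comparison. Isozymes of the list with larger counts were *Gpi1* (mean 126 CPM over 8 libraries), *Pfkm* (86.3 CPM), *Aldoc* (76.2 CPM) and *Pfkl* (65.1 CPM). Hypoxia-induced genes, several of which share their control with glycolytic genes, summed to 389 to 460 CPM over 10 genes.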

How the data were processed

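The authors aligned the reads to mm9 with STAR 2.7.2 and counted them per gene with featureCounts, per the labels and the study's methods. Strand use, the annotation release and the handling of reads that match several places are not given in the sources used here. The deposited values are whole-number counts per gene symbol, not normalized, 1 column per animal. Members, lists and alternatives were chosen with earlier results of these data known. Groups and sex came from the labels, and replicates were numbered in deposit order, which pairs no animals.

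Counts were tested in R 4.3.3 with edgeR 4.0.16 (TMM, quasi-likelihood, genotype as the factor, all 8 libraries in 1 fit, a minimum of 1 CPM in 1 library or more, adjusted p threshold 0.05). Intervals are 95%. Alternatives changed the scaling (RLE, upper quartile), the filter (filterByExpr, none), the test (likelihood ratio, DESeq2 1.42.0), the samples (compared groups alone, each library omitted) or the factors (sex added). The fit was tested on simulated data. Copies were looked up in Python 3.11.15 with Numba 0.67.0 as exact 50-base matches, and those within 2000 bases of each other were joined into a locus of at least 10 windows. Merged exon lengths came from GENCODE vM1. Permutation tests used SciPy 1.17.1.

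Named by rule were the 10 members, the 3 largest fold changes per comparison among pathway and reference genes with a mean of at least 1 CPM, list genes under 3 CPM in every library where the list median was over 10 CPM, the 3 lowest retrocopied genes per kb and the 3 genes most like the summed members. Other genes are named outside that rule, and 1 gene the rule chose is not reported here.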

Additional observations from a re-analysis of the deposited data

Results flagged for a closer look

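Within the 1b+/- group of 4 animals, *Hk1* was 176 CPM in replicate 2 while the other 3 lay between 269 and 281 CPM, a gap of 0.880 of the whole range. *Pkm* was 458 CPM in replicate 4 while the other 3 lay between 298 and 323 CPM, a gap of 0.843 of the range. Both exceed the limit of Dixon's test for a sample far from the others. Over the 11 measures examined, chance alone would give 0.55 such gaps.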

How the results depend on the processing

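No member and no gene of the pathway lists passed the threshold under any alternative tried (0 calls in 96 of 96 counts over 16 settings, 8 of which left out a library), and the smallest adjusted p of a member was 0.897. Of 426 alternative fold changes of single members, 51 changed sign, none of them past the threshold. The share of *Gapdh* windows found elsewhere was 85.6%, and became 87.7% with 1 mismatch allowed and 50.2% over merged exons, which by construction hold no junctions and include sequence of transcripts that keep an intron. The *Ldha* share of lactate dehydrogenase was 29.1% per kb of merged exon, 36.5% per kb of the longest transcript and 43.7% with no length, so its level depends on the length used. Omitting an animal left 1 library in WT or in 1b-/-, which was then assumed to vary like the other groups. No paired analysis was possible because the labels give no replicate numbers shared between groups. Depth limits *Gapdh*, *Pgk1* and *Eno1*, which had 0 to 15 counts a library.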
